A study of Homo sapiens with 3 samples.

Results

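PPARG and RXRA encode the nuclear receptors PPARγ and RXRα, and the deposited table lists 10 circular RNAs (circRNAs) under these gene names, 8 of PPARG and 2 of RXRA, among 10562 circRNAs of 4231 host genes. The members were all rows with either gene name. The samples are 3 human lines, each sequenced as a single library: the bladder cancer lines J82 and T24 and, as the non-cancer line, immortalized urothelial SV-HUC-1 cells. No line is labelled as treated. Each library began with 2 μg of RNA, from which ribosomal RNA was depleted and linear RNA digested with the exonuclease RNase R. A line stands here for 1 culture, so differences between lines have no replicate spread, and what the reads show of a line may belong to its one library. Fewer cells that express a gene and less RNA per cell cannot be told apart in such bulk RNA.

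PPARγ is a transcription factor that is activated by fatty acid ligands. It binds DNA as a heterodimer with an RXR receptor, and RXRα is the partner also of the retinoic acid, vitamin D and thyroid hormone receptors. In the urothelium PPARγ is known to promote differentiation together with FOXA1, GATA3 and related factors, and both receptors are recurrently altered in luminal bladder cancers. A circRNA forms when the end of an exon is spliced back to the start of the same or an upstream exon of the transcript. Its reads count the circular form and measure neither the linear messenger RNA nor the receptor protein.

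Values are CPM, read abundances normalized with TMM factors, and the whole reads behind them. Per library, listed in the order SV-HUC-1, J82, T24, the circRNAs took 128055, 126041 and 108574 reads, and 1 read equals 0.0201, 0.0211 and 0.0234 CPM. The table holds only circRNAs that reached 5 reads in some line, so a PPARG or RXRA circRNA below that level was not analysed here. Intervals are exact 95% intervals (Poisson for a CPM, Clopper-Pearson for a ratio or a share). They cover counting error only, since each line has 1 library. The reads carry no molecular identifiers, so amplified copies cannot be told from separate molecules and the intervals may be too narrow.

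The 8 PPARG circRNAs lay on the plus strand of chromosome 3 between positions 12343019 and 12458653 (hg19, as deposited), an extent of 116 kb, and used 5 starts and 5 ends between them. The table gives no exon annotation. The most upstream was hsa_circ_0007278, from 12343019 to 12353952. A start 74 positions before its end, at 12353878, was shared by hsa_circ_0064335, which ended at 12422990, hsa_circ_0064336, which ended at 12434251, and hsa_circ_0064337, which ended at 12447580. A start at 12421202 was shared by hsa_circ_0064338 and hsa_circ_0121717, which reached the same ends, 12422990 and 12434251, as the first 2 of those 3. The remaining pair shared the end 12458653. Of these, hsa_circ_0121731 began at 12447380 and the other, which has no circBase ID, began at 12458202 and spanned 451 positions. The spans ran from 0.451 to 93.7 kb, and the median over all 10 members was 11.1 kb, beside 6.05 kb over all listed circRNAs. All but the circRNA of 451 positions and 1 of the 2 RXRA circRNAs had a circBase ID.

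**Figure D1:**
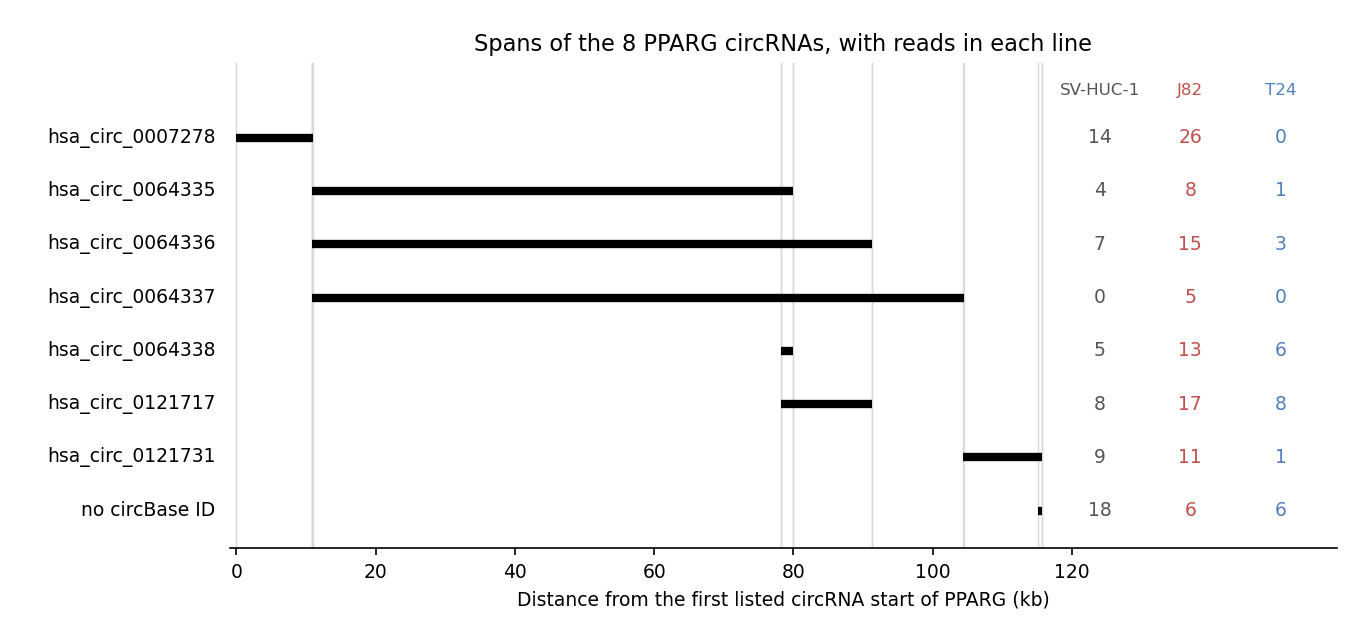
Spans of the 8 PPARG circRNAs along the gene. The x axis is the distance in kb from the first listed start, each black bar runs from the start to the end of 1 circRNA, grey vertical lines mark the starts and ends, and the numbers at the right are reads in SV-HUC-1, J82 and T24. The first circRNA has 14, 26 and 0 reads, and the 2 circRNAs that share the third start have 6 and 8 reads in T24.

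Summed over its 8 circRNAs, PPARG stood highest in J82 and lowest in T24. Its reads were 65 in SV-HUC-1 (1.30 CPM, 1.01 to 1.66), 101 in J82 (2.14 CPM, 1.74 to 2.59) and 25 in T24 (0.585 CPM, 0.379 to 0.864), and 7, 8 and 6 of the circRNAs were detected. The 3 counting intervals did not overlap, so the order J82, SV-HUC-1, T24 exceeded counting error, while variation between cultures of a line was not measured. J82 exceeded SV-HUC-1 by 1.64-fold (1.19 to 2.27), T24 was 2.23-fold lower than SV-HUC-1 (1.39 to 3.69), and J82 exceeded T24 by 3.65-fold (2.34 to 5.90). The first pair of ratios shares the SV-HUC-1 library, so they are not independent. Without hsa_circ_0007278, its most abundant circRNA over the 3 lines, PPARG in T24 stood at 0.572 of SV-HUC-1 (0.339 to 0.940), which is no longer past 2-fold.

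RXRA was lowest in T24, and its levels in SV-HUC-1 and J82 did not differ beyond counting error. Its 2 circRNAs together had 18 reads in SV-HUC-1 (0.361 CPM, 0.214 to 0.571), 19 in J82 (0.402 CPM, 0.242 to 0.627) and 4 in T24 (0.0936 CPM, 0.0255 to 0.240). The J82 and SV-HUC-1 intervals overlapped for most of their length, and the ratio of J82 to SV-HUC-1 was 1.11 with an interval of 0.552 to 2.25, so a difference of up to about that size was not detectable at this depth. T24 was 3.86-fold lower than SV-HUC-1 (1.27 to 15.7), and J82 exceeded T24 by 4.29-fold (1.43 to 17.3).

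A shift of this size was not rare in these libraries. Between J82 and T24, 20.7% of 2513 host genes with at least 10 reads in either line stood at least 2-fold higher in J82 (37.4% in either direction), on a log2 scale with 1 read of the shallowest library added, and PPARG (log2 difference 1.83) and RXRA (1.86) lay above 91.1% and 91.3% of them. Between T24 and SV-HUC-1, T24 was past 2-fold below for 22.1% of 2616 host genes (40.9% in either direction). There PPARG (-1.13) lay above 19.3% of host genes and RXRA (-1.72) above 11.9%. Between J82 and SV-HUC-1, where 37.9% of 2647 host genes were past 2-fold in either direction, neither PPARG (0.70) nor RXRA (0.14) was.

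**Figure D2:**
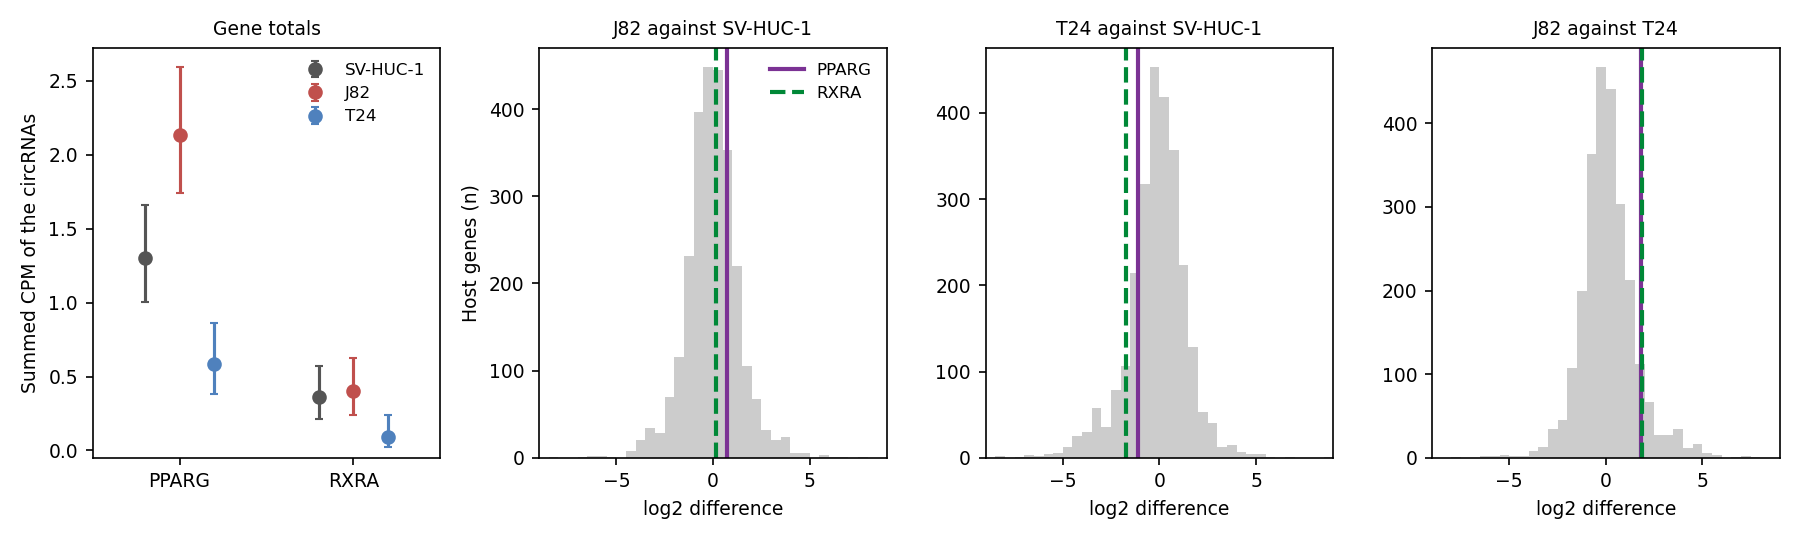
Gene totals of PPARG and RXRA and their place among all host genes. The left panel plots the summed CPM of each gene's circRNAs in each line (points, 1 library each) with exact 95% counting intervals, and the other panels are histograms of the log2 difference (CPM + 1 read) of host genes with at least 10 reads in 1 of the lines compared, with PPARG as a solid and RXRA as a dashed line. Both genes sit left of the middle in T24 against SV-HUC-1, at -1.13 and -1.72, above 19.3% and 11.9% of host genes. In J82 against T24 they sit right of it, at 1.83 and 1.86.

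The circRNAs of PPARG did not all follow the total. The most upstream one, hsa_circ_0007278, took 14 reads in SV-HUC-1 (0.281 CPM), 26 in J82 (0.550 CPM) and 0 in T24. It was the most abundant PPARG circRNA of J82, with 25.7% of the gene's reads (17.6 to 35.4), and was undetected in T24. Against a floor of 3 reads in T24 it was at least 4-fold lower there than in SV-HUC-1 and at least 7.83-fold lower than in J82 at the reads observed in those lines. The exact 95% limits are 2.84 and 5.93. Of 851 circRNAs with at least as many reads in SV-HUC-1 and J82, 8 (0.940%) had 0 reads in T24, this one included. Since hsa_circ_0007278 has the fewest reads that this set allows, the percentage does not describe circRNAs of its own depth. The ratio of J82 to SV-HUC-1 was 1.96 (0.985 to 4.05).

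The 3 circRNAs that begin at 12353878 were also most abundant in J82. The one of intermediate length, hsa_circ_0064336, had 7, 15 and 3 reads (SV-HUC-1, J82, T24). J82 exceeded T24 by 4.52-fold (1.28 to 24.3), and its ratio to SV-HUC-1 was 2.26 (0.866 to 6.54). The shorter hsa_circ_0064335 had 4, 8 and 1 reads, and the longest, hsa_circ_0064337, was seen in J82 alone with 5 reads. Both stayed under the filter of 10 reads, and 5 reads are the least at which a circRNA enters the table.

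The pair that begins at 12421202 had CPM values in T24 slightly above those of SV-HUC-1, within counting error. The longer, hsa_circ_0121717, had 8 reads in SV-HUC-1 (0.161 CPM), 17 in J82 (0.359 CPM) and 8 in T24 (0.187 CPM). The shorter, hsa_circ_0064338, had 5 reads (0.100 CPM), 13 (0.275 CPM) and 6 (0.140 CPM). In each, J82 was the highest line, and the ratios of T24 to SV-HUC-1 were 1.17 (0.382 to 3.56) and 1.3995 (0.356 to 5.80). Ratios of J82 to SV-HUC-1 were 2.24 (0.916 to 5.99) and 2.74 (0.916 to 9.81), whose intervals took in 1.

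The pair that ends at 12458653 went another way. The circRNA of 451 positions without a circBase ID had 18 reads in SV-HUC-1 (0.361 CPM), 6 in J82 (0.127 CPM) and 6 in T24 (0.140 CPM). It was the most abundant PPARG circRNA of SV-HUC-1 and the only PPARG circRNA with fewer reads in J82 than in SV-HUC-1, 2.85-fold lower (1.08 to 8.76). In T24 it was 2.57-fold lower than in SV-HUC-1 (0.978 to 7.92). Its partner hsa_circ_0121731 had 9, 11 and 1 reads (SV-HUC-1, J82, T24), and J82 exceeded T24 by a ratio of 9.94 (1.44 to 428). The other 7 PPARG circRNAs together had 47, 95 and 19 reads, and without the circRNA of 451 positions J82 exceeded SV-HUC-1 by 2.13-fold (1.49 to 3.09).

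**Figure D3:**
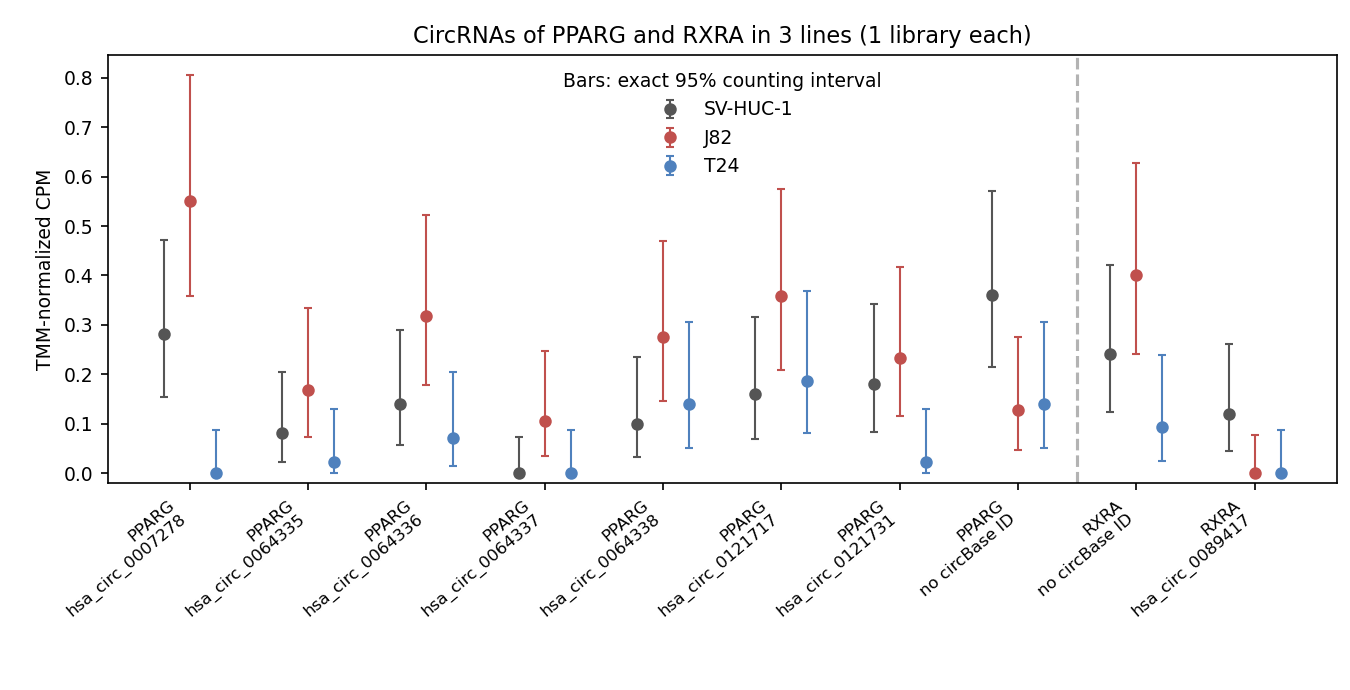
Level of each PPARG and RXRA circRNA in the 3 lines. The y axis is TMM-normalized CPM, points are 1 library each, bars are exact 95% counting intervals, and a dashed line separates the 2 genes. J82 is highest for 7 of the 8 PPARG circRNAs, and SV-HUC-1 is highest for the one without a circBase ID at 0.361 CPM.

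The 2 RXRA circRNAs lay on the plus strand of chromosome 9 and did not overlap. The upstream one, from 137293477 to 137300965 and without a circBase ID, had 12 reads in SV-HUC-1 (0.241 CPM), 19 in J82 (0.402 CPM) and 4 in T24 (0.0936 CPM). It made up every RXRA read of both cancer lines, and J82 exceeded T24 by 4.29-fold (1.43 to 17.3). Its ratio was 1.67 in J82 against SV-HUC-1 (0.769 to 3.77), and in T24 it was 2.57-fold lower than in SV-HUC-1 (0.780 to 10.9). The downstream one, hsa_circ_0089417 (137309003 to 137313651), had 6 reads in SV-HUC-1 (0.120 CPM) and 0 in both J82 and T24. It was at least 1.90-fold lower in J82 and at least 1.71-fold lower in T24, each against a floor of 3 reads, with exact 95% limits of 1.12 and 1.01. It held 33.3% of the RXRA reads of SV-HUC-1 (13.3 to 59.0), against 0 of 19 in J82, which at 3 reads allows a share of up to 15.8% and has an exact upper limit of 17.6%. Of 5338 circRNAs with at least 6 reads in SV-HUC-1, 233 (4.36%) had 0 in both cancer lines. With exactly 6 reads, hsa_circ_0089417 stood at the lowest depth of that set, so the percentage does not describe circRNAs of its own depth.

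Counted over circRNAs that reached 10 reads in 1 of the lines compared, J82 against SV-HUC-1 had 7 of the 10 members, of which 3 stood past 2-fold higher (22.9% of all circRNAs tested were) and 1 was at least 2-fold lower (23.3%). The 3 higher ones were hsa_circ_0064336, hsa_circ_0064338 and hsa_circ_0121717, each with log2 differences between 1.06 and 1.27, and the lower one was the PPARG circRNA of 451 positions at -1.36. In T24 against SV-HUC-1, 3 members reached 10 reads and all of these were at least 2-fold lower (27.3% of all tested). They were hsa_circ_0007278, the PPARG circRNA of 451 positions and the upstream RXRA circRNA. In J82 against T24, 4 of 6 members were at least 2-fold higher in J82 (25.1% of all tested) and 0 lower (19.5%). They were hsa_circ_0007278, hsa_circ_0064336, hsa_circ_0121731 and the upstream RXRA circRNA. With 5 reads added in place of 1, 0 members were past 2-fold in J82 against SV-HUC-1 and 1 in T24 against SV-HUC-1. A circRNA that is high in 1 line passes this filter through that line, so these counts describe the members that passed and not all 10. No member reached 10 reads in T24, so none that passed could stand past 2-fold higher in T24. An exact binomial test of the reads, which compares 2 libraries and not the conditions, called 0 members in J82 against SV-HUC-1 (34.7% of all tested), 1 in T24 against SV-HUC-1 (37.4%; hsa_circ_0007278, Benjamini-Hochberg adjusted p = 0.00144) and 4 in J82 against T24 (33.9%).

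The fit run across all circRNAs set both cancer lines together against SV-HUC-1, with 1 residual degree of freedom, and takes the spread of the single SV-HUC-1 library to equal theirs. With limma, 0 of 7 members tested were called at an adjusted p under 0.05 (Benjamini-Hochberg over 4513 circRNAs, of which 0% were called), with adjusted p between 0.817 and 0.984. None of the 7 had an unadjusted p under 0.05 either, against 218 of all circRNAs tested. Without the read filter all 10 members entered limma and 0 were called, and hsa_circ_0089417 had an unadjusted p of 0.0257 (log2 difference -2.62, adjusted p = 0.634). In the quasi-likelihood test of edgeR on whole reads, 48 circRNAs (1.06%) were called and 0 of these members, whose adjusted p lay between 0.944 and 0.9997. J82 and T24 stood on opposite sides of SV-HUC-1 for the PPARG total, so a mean of both lines describes neither.

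The make-up of the PPARG reads differed between the lines, and shares within a gene do not depend on how the libraries were scaled. Between J82 and SV-HUC-1, 24.7% of the PPARG reads lay on other circRNAs, where the median host gene had 16.2%. There PPARG lay above 73.2% of 693 host genes with at least 25 reads in each line. In T24 against SV-HUC-1 it lay above 93.7%, and in J82 against T24 above 96.8%. Among 358 host genes with at most 50 reads in their lowest line, these percentages were 67.3, 91.3 and 94.4. Neither set was matched on the number of circRNAs, and PPARG with 8 had more than 96.1% of all host genes. Its 25 reads in T24 equal the minimum for entry. More circRNAs and fewer reads both leave more room for such a difference, and their part in these ranks was not tested. The circRNAs were grouped by shared start after their values had been seen, so the groups are a description. The pair from 12421202 held 13 of 65 PPARG reads in SV-HUC-1 (20%, 11.1 to 31.8), 30 of 101 in J82 (29.7%, 21.02 to 39.6) and 14 of 25 in T24 (56.0%, 34.9 to 75.6). The interval of T24 lay above that of SV-HUC-1 and overlapped that of J82. The 4 circRNAs that use the start 12353878 or the end 12353952 held 38.5% (26.7 to 51.4), 53.5% (43.3 to 63.5) and 16.0% (4.54 to 36.1), so J82 and T24 did not overlap. In CPM these 4 were 5.36-fold lower in T24 than in SV-HUC-1 (1.85 to 21.2), while the pair from 12421202 had a ratio of 1.26 (0.548 to 2.90). The 4 include hsa_circ_0007278, undetected in T24. For the 3 that begin at 12353878, the ratio of T24 to SV-HUC-1 was 0.424 (0.0985 to 1.43), whose interval took in 1. Shares of these 3 were 16.9% (8.76 to 28.3), 27.7% (19.3 to 37.5) and 16.0% (4.54 to 36.1), with overlapping intervals. The lower share of the 4 in T24 was therefore not seen without hsa_circ_0007278. In J82 the group of 4 and the pair stood above SV-HUC-1, by 2.28-fold (1.39 to 3.82) and 2.43-fold (1.23 to 5.08). The circRNA of 451 positions held 27.7% (17.3 to 40.2) in SV-HUC-1, 5.94% (2.21 to 12.5) in J82 and 24% (9.36 to 45.1) in T24, and the SV-HUC-1 and J82 intervals did not overlap.

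**Figure D4:**
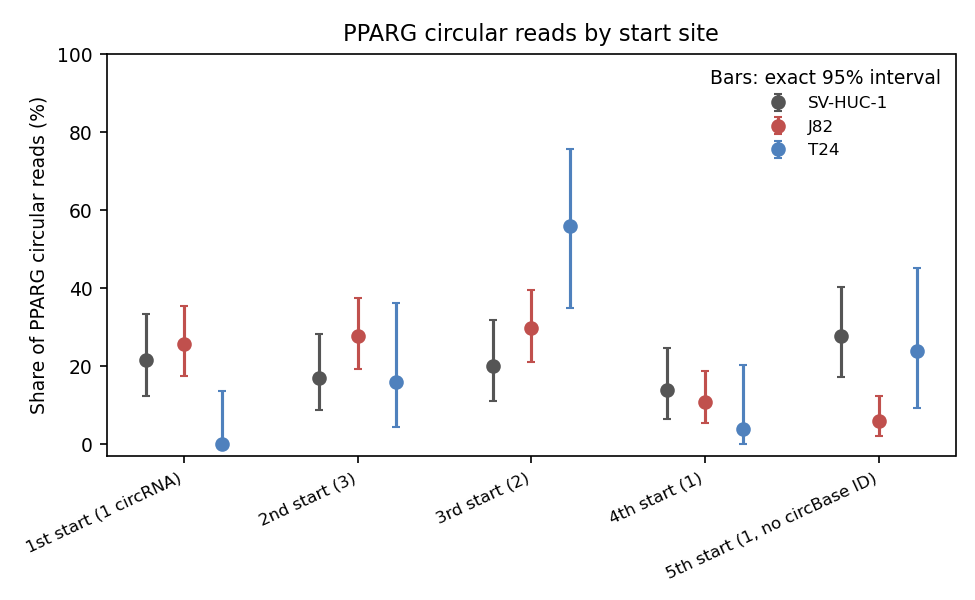
Shares of the PPARG circular reads by start site. The y axis is the percentage of a line's PPARG reads, the x axis orders the 5 starts along the gene with the number of circRNAs in brackets, points are 1 library each and bars are exact 95% intervals. The third start holds 56.0% in T24 against 20% in SV-HUC-1, and the last start holds 5.94% in J82 against 27.7% in SV-HUC-1.

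PPARG ranked high among host genes in its number of circRNAs, with 165 of 4231 host genes listed with 8 or more, while RXRA with 2 was one of 2276 with as many or more. By circular reads PPARG in J82 stood above 93.7% of host genes, in SV-HUC-1 above 88.8% and in T24 above 74.3%. For RXRA these percentages were 65.6, 62.4 and 25.7.

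Host genes with a profile most like PPARG over the 3 lines were found by the least summed difference in each line's share of the gene's CPM, among 2154 host genes with at least 30 reads. J82 held 53.1% of the PPARG CPM, SV-HUC-1 32.4% and T24 14.5%. The nearest was CWF19L2, with 31, 47 and 12 reads (SV-HUC-1, J82, T24), followed by CDK8, the kinase of the Mediator complex, with 45, 72 and 18. TGFBRAP1, VRK1 and NHS came next. For RXRA the shares were 46.9%, 42.2% and 10.9%. The nearest to it were ARHGAP26, with 107, 110 and 24 reads, and MYO1E, a class I myosin, with 51, 52 and 12. KDM5B, SUMF1 and HAT1 followed. With 3 points per profile, such likeness is a description of these libraries.

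Few other receptors of the family gave circRNAs. Of the 6 PPAR and RXR genes, PPARA was the only other one listed, with 5 reads in SV-HUC-1 and 1 in each cancer line. PPARD, RXRB and RXRG were not among the listed host genes. Of 13 receptors that pair with RXR or are close to those that do, 2 were listed. THRB, a thyroid hormone receptor, had 16, 30 and 0 reads (SV-HUC-1, J82, T24), the order seen for PPARG, and was at least 4.57-fold lower in T24 than in SV-HUC-1. RARA, a retinoic acid receptor, had 15, 5 and 11 reads, and its ratio of J82 to SV-HUC-1 was 0.351 (0.0998 to 1.02).

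Of 29 other nuclear receptors, 7 were listed and 4 had at least 10 reads in SV-HUC-1 or a cancer line. In each cancer line 2 of these 4 were at least 2-fold lower than in SV-HUC-1 and 0 were higher, where 19.5% (J82) and 22.1% (T24) of all host genes tested were lower. The lower genes were NR2F2 and NR6A1, which passed the filter against T24 through SV-HUC-1 alone. The orphan receptor NR2F2 had 160, 15 and 5 reads (SV-HUC-1, J82, T24), 10.1-fold (5.96 to 18.5) and 27.4-fold (11.5 to 85.7) lower. NR6A1 had 29, 7 and 1 reads. NR3C1, the glucocorticoid receptor, had 39, 31 and 25 reads and NR2C2 23, 24 and 13, all within 2-fold.

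Nuclear receptors act through coactivators and corepressors. Of 21 coactivator genes, 16 were listed, and 1 of 13 tested was past 2-fold higher in J82 (NCOA3, 23 against 4 reads) and 1 lower (CARM1, 9 against 22). In T24, 0 of 12 were higher and 2 lower (NCOA1, 2 against 12 reads, and PRMT2, 4 against 11). Of all host genes tested, 18.4% were higher and 19.5% lower in J82, and 18.7% and 22.1% in T24. The median log2 differences were 0.26 and -0.01, beside -0.03 and -0.04 over all host genes tested. The Mediator subunit gene MED13L had 247, 416 and 229 reads (SV-HUC-1, J82, T24), and J82 was 1.77-fold higher than SV-HUC-1 (1.51 to 2.09). CREBBP, an acetyltransferase, had 239, 115 and 130 reads and was 1.97-fold (1.57 to 2.49) and 1.58-fold (1.27 to 1.97) lower in J82 and T24. KMT2C had 176, 177 and 144 reads and NCOA6 52, 60 and 54.

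Of 12 corepressor genes, 8 were listed and 5 tested. NRIP1, a corepressor of ligand-bound receptors, had 266, 93 and 51 reads (SV-HUC-1, J82, T24), and was 2.71-fold (2.14 to 3.48) and 4.47-fold (3.30 to 6.16) lower. It was the only one of the 5 past 2-fold from SV-HUC-1 in either cancer line, and the medians were 0.41 in J82 and 0.42 in T24. Of all host genes tested, 37.9% (J82) and 40.9% (T24) were past 2-fold in either direction. NCOR1 had 39 reads in SV-HUC-1 and 59 in each cancer line, and SIN3A had 33, 28 and 52.

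Of 30 genes of lipid metabolism, many of them targets of PPAR or partner receptors, 9 were listed. CPT1A, which brings fatty acids into mitochondria and is induced by PPAR receptors, had 21, 59 and 54 reads (SV-HUC-1, J82, T24), 2.96-fold (1.77 to 5.13) and 3.00-fold (1.78 to 5.23) higher. HMGCS1, of sterol synthesis, had 49, 14 and 30 reads and was 3.32-fold lower in J82 (1.81 to 6.52). ACSL3, a fatty acid activating enzyme, had 39, 18 and 13 reads and was 2.57-fold lower in T24 (1.34 to 5.25), and ACACA had 32, 35 and 46. Of 6 tested in J82, 1 was at least 2-fold higher and 2 lower, and of 7 in T24, 3 were higher and 2 lower, with medians of -0.87 and 0.72. Of all host genes tested, 18.4% were higher and 19.5% lower in J82, and 18.7% and 22.1% in T24. FABP4, PLIN1 and ADIPOQ, classical PPARγ targets of fat cells, were not among the listed host genes, and 0 of 7 adipocyte markers were.

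Of 19 transcription factors of urothelial or related epithelia, 4 were listed and none of them had a read in T24. GRHL2, a grainyhead-like factor that maintains epithelia, had 371, 182 and 0 reads (SV-HUC-1, J82, T24) and was at least 106-fold lower in T24 than in SV-HUC-1. TFAP2A had 12, 4 and 0 reads, OVOL2 6, 2 and 0, and KLF5 0, 5 and 0. FOXA1 and GATA3 were not among the listed host genes. Of 21 epithelial markers, 10 were listed, with summed levels of 12.9, 3.45 and 0.0936 CPM. Past 2-fold lower than in SV-HUC-1 were 7 of 9 tested in J82, where 1 was higher, and 8 of 8 in T24 (19.5% and 22.1% of all host genes tested were lower). The 8 passed the filter through SV-HUC-1 alone, with 0 or 1 read in T24, so their direction in T24 was largely fixed by it. In J82 the same holds for CDH1 and EPCAM (8 reads each), LAMA3 (7), CDH3 and ST14 (0 each), which passed through SV-HUC-1 alone. In T24, LAMA3, MYO5B, ESRP1, EPCAM, CDH1, CDH3, ST14 and DSP were at 0 and ITGB6 and KRT7 had 1 and 3 reads, and in J82 CDH3, ST14 and DSP were at 0. Of 18 mesenchymal markers, 8 were listed, with summed levels of 7.79, 2.96 and 2.41 CPM. In J82 2 of 6 tested were past 2-fold higher and 4 lower, and in T24 3 and 3. Of all host genes tested, 18.4% (J82) and 18.7% (T24) were higher, beside the 19.5% and 22.1% that were lower. The 1 listed of 12 blood and endothelial markers, FLI1, had 33, 11 and 44 reads. T24 was lowest for the summed epithelial markers, for the summed mesenchymal markers and for PPARG and RXRA. J82 was lower than SV-HUC-1 for both marker sums but highest for PPARG. Among the markers ESRP1 was level between J82 and SV-HUC-1 (43 against 44 reads), and KRT7 was higher in J82 (17 against 7). The part of these levels in the values of PPARG and RXRA was not tested.

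Genes next to the receptors were set beside them. Within 1 Mb of the RXRA circRNAs, 4 host genes were listed. COL5A1, a type V collagen chain whose circRNAs begin 269 kb away, had 190, 51 and 0 reads (SV-HUC-1, J82, T24), and ADAMTS13 had 23, 1 and 0. VAV2 had 43, 24 and 21 reads and WDR5 9, 21 and 10. COL5A1, ADAMTS13 and VAV2 had their fewest reads in T24, and WDR5 in SV-HUC-1. COL5A1 is also one of the mesenchymal markers. Within 1 Mb of the PPARG circRNAs, 8 host genes were listed. ATG7 had 103, 138 and 135 reads and MKRN2 9, 10 and 13, whereas TAMM41 (21, 13 and 4) had its fewest reads in T24. ATG7, MKRN2 and TAMM41 lay within 2-fold of SV-HUC-1 in J82, and TAMM41 lay past 2-fold lower in T24. VGLL4 (5, 0 and 1), TMEM40 (8, 2 and 2), IQSEC1 (6, 2 and 7) and NUP210 (4, 5 and 0) stayed under the filter.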

How the data were processed

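The authors deposited 1 table of circRNAs with CPM in 3 value columns, named in the file as TMM-normalized, and 0 value columns stayed unmatched. The submitters' processing notes name the build hg19 and the tools STAR, edgeR, RSEM 1.2.15 and Bowtie2 2.1.0 without roles. The back-splice caller, and whether starts count from 0 or 1, are not given in the sources used here. Dividing each CPM column by its smallest nonzero value gave whole reads (100% of values, tolerance 0.01 reads). Ratios are of CPM. Differences are log2(CPM + 0.0234), 1 read of the shallowest library, for features with at least 10 reads in 1 line compared, which understates folds of low circRNAs. Reads of 257 circRNAs without a host gene entered no gene total. Fits used limma 3.58.1 and edgeR 4.0.16 in R 4.3.3, and intervals SciPy 1.17.1. The fits, the binomial test and the ratio intervals were tested on simulated Poisson counts, which hold no variation between cultures. The intervals of CPM and of shares were not tested in this way. Named in each list are the 4 host genes with most reads, plus those that make up counts of 2 or fewer, markers at 0 and classical genes that were not listed, chosen after the values were seen. Named as most alike are the 5 nearest host genes. Neighbours were all host genes within 1 Mb. Some genes that these rules select are not reported here. Alternatives were 2 scalings, 2 pseudocounts, 2 filters, a 4-fold threshold, an exact binomial test of reads and leaving out the most abundant circRNA. Members and lists were chosen with earlier results of these data known.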

Additional observations from a re-analysis of the deposited data

Results flagged for a closer look

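The PPARG total stood on opposite sides of SV-HUC-1 in the 2 cancer lines. Relative to SV-HUC-1, J82 had a ratio of 1.64 (1.19 to 2.27), whereas T24 had one of 0.449 (0.271 to 0.721). Both intervals leave out 1, but they cover counting error of 1 library per line, the lines share the SV-HUC-1 library, and the difference between the lines' effects was not tested over replicates.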

How the results depend on the processing

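No paired analysis was possible because each line has 1 library. Of 70 alternative values, 51 stayed within the interval, or within 1.5 times the count, of the value reported, and 0 called values turned direction. Counts of members past 2-fold moved under several alternatives. In J82 against SV-HUC-1 the 3 higher became 0 and the 1 lower became 0 with a pseudocount of 5 reads, a filter of 20 reads, a 4-fold threshold or the exact binomial test of reads, and without a filter 2 were lower. In T24 against SV-HUC-1 the 3 lower became 1 with a pseudocount of 5 reads, a 4-fold threshold or the binomial test, 0 with a filter of 20 reads and 6 with no filter. In J82 against T24 the 4 higher became 1 with the filter of 20 reads and 2 at 4-fold. Without its most abundant circRNA, RXRA is hsa_circ_0089417 alone, and its ratio to SV-HUC-1 was 0 in J82 (0 to 0.895) and 0 in T24 (0 to 0.991), and none could be had for J82 against T24. Of the 5 host genes most like PPARG, 3 were kept with a minimum of 60 reads. Folds of circRNAs with 0 reads are limited by depth, since 3 reads are 0.0602 to 0.0702 CPM.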
